A study of Mus musculus with 7 samples.

Results

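E proteins and Id proteins form an opposed pair of helix-loop-helix factor families, and 6 of their genes were followed here: the Id genes Id1, Id2 and Id3 and the E protein genes Tcf3, Tcf4 and Tcf12. The genes were chosen by name, with every probe set that carries exactly 1 gene symbol, and the probe set of highest mean stood for each gene. They had 19 of the 45037 probe sets of the array. All 6 were among the 10874 of 18193 genes that were bright enough to be tested, at an intensity of 82.0 or more in at least 2 arrays, and 16 of the 19 probe sets reached that intensity.

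The samples were T cells sorted from pooled thymi of C57BL/6J background mice, 4 to 6 weeks of age, and measured on 7 single-colour Affymetrix arrays. Stage 1 natural killer T (NKT) cells, sorted as CD1d tetramer+ CD24low CD44- NK1.1-, came from Valpha14 T cell receptor transgenic mice (n = 2). The second group was the same sort from mice with that transgene and the Luxoid mutation, labelled as PLZF-deficient (n = 3). The third group came from wild-type mice, without the transgene, and held CD4+ CD8- single-positive thymocytes (CD4SP, n = 2), so the CD4SP comparisons differ in cell type and in transgene, which cannot be told apart here. Luxoid is a mutation of Zbtb16, which encodes the transcription factor PLZF.

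E proteins are basic helix-loop-helix activators that bind the E box as dimers. Tcf3 encodes E12 and E47, Tcf12 encodes HEB and Tcf4 encodes E2-2. Id proteins have the helix-loop-helix but no basic region, so an E protein paired with an Id protein does not bind DNA. In the thymus E proteins hold cells at the receptor checkpoints and take part in the double-positive stage from which NKT cells arise, while Id3 is induced by receptor signals during selection and Id2 is characteristic of innate-like and effector lymphocytes. These Tcf genes are unrelated to Tcf7 and to the Wnt factors Tcf7l1 and Tcf7l2, which once shared names with them; the symbols were matched by gene ID.

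The arrays had medians of 79.6 to 83.7, and arrays of 1 group correlated at r = 0.984 to 0.992 over all probe sets. Luxoid and stage 1 NKT arrays correlated nearly as closely with each other, at 0.981 to 0.992. With CD4SP arrays the values were 0.968 to 0.979 for Luxoid and 0.972 to 0.977 for stage 1 NKT. The cell type label of both CD4SP samples describes the NKT sort instead, against their titles and sources. The brightest probe set of Zbtb16, a defining gene of NKT cells, read 1857 to 3488 in the 5 NKT arrays and 61.8 and 87.3 in the CD4SP arrays, so the titles were followed. The Zbtb16 transcript is still present in Luxoid, and this probe set overlapped between the 2 NKT groups. Its other probe sets were lower in every Luxoid array, at 622 to 918 and 396 to 472. In stage 1 NKT they read 1263 and 1579, and 728 and 745. These levels were not taken as a check of the 2 NKT labels. Cd24a, low by the NKT sort, was at 14.1 and 28.1 on average in stage 1 and Luxoid NKT and at 242 in CD4SP. The pools differed in sex: Y-linked Kdm5d read 6.49 to 11.7 in the 3 arrays numbered 1 and 758 to 2331 in the other 4. Of those 4, stage 1 NKT array 2 and Luxoid array 3 were also high in the female marker Xist (3888 and 5426). Luxoid array 2 and CD4SP array 2 were not (36.1 and 29.0). Nothing beyond the word biological replicate says how the pools were made, so p-values measure the spread between these arrays. In sorted bulk samples, fewer cells that express a gene and less RNA per cell cannot be told apart.

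Among the Id genes, the inhibitor side, Id2 was the member with the largest differences: it averaged 3684 in the stage 1 arrays, 2210 in the Luxoid arrays and 456 in those of CD4SP, and both NKT groups passed against CD4SP. Id3 was higher in both NKT groups than in CD4SP and averaged 2303 in stage 1 and 2384 in Luxoid NKT. Id1 was dim, at 106 to 156 in the 7 arrays, and overlapped between all groups. Against CD4SP, 2 of 6 members rose in stage 1 NKT and 3 of 6 in Luxoid NKT, and none fell. Over all genes tested, limma called 14.9% in the first comparison (10.8% higher and 4.08% lower) and 16.8% in the second (11.3% higher and 5.51% lower). The 2 comparisons share the CD4SP arrays. Between the NKT groups limma called 0 of 6 members, against 1.55% of all genes called (0.901% higher and 0.653% lower). Of the 6, 1 (Id2) was at an unadjusted p under 0.05. No share of all genes at that unadjusted threshold is given, here or for the lists below, so such counts have no baseline. Arrays of both groups did not overlap for 3 members against CD4SP in stage 1 NKT (Id2, Id3 and Tcf4) and for 4 in Luxoid NKT (also Tcf12), all higher. Over all genes tested 60.2% did not overlap in the first of these (36.6% higher, 23.6% lower) and 46.0% in the second (25.4% higher, 20.6% lower). Between the NKT groups 1 member, Id2, did not overlap, against 26.7% of all genes (10.1% higher, 16.6% lower). The median log2 difference of the 6 members was 0.36 for stage 1 NKT minus CD4SP, 0.63 for Luxoid minus CD4SP and 0.02 for Luxoid minus stage 1 NKT. Over all genes tested these medians were 0.06, 0.02 and -0.03.

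**Figure D1:**
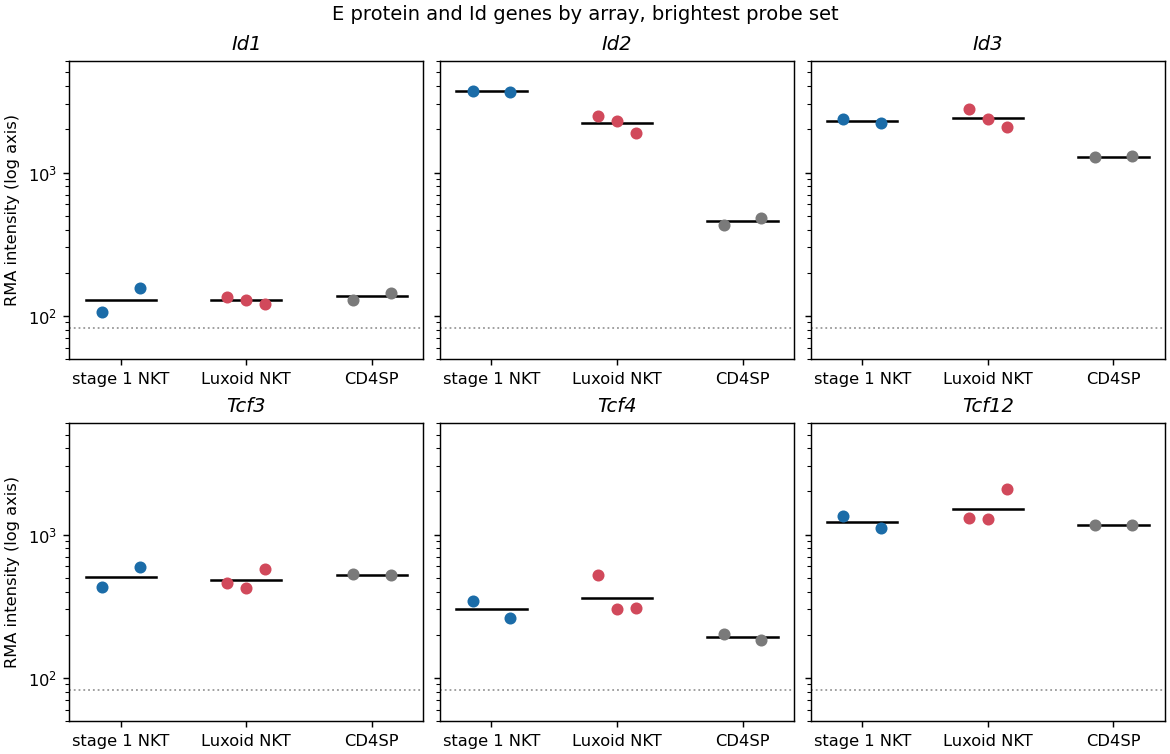
RMA intensity (log axis) of the brightest probe set of each gene in the 7 arrays, by group; horizontal bars are geometric means of 2 or 3 arrays and the dotted line is the intensity filter of 82.0. Id2 falls from 3660 and 3708 in stage 1 NKT to 1900 to 2479 in Luxoid NKT and 429 and 484 in CD4SP, Id3 separates both NKT groups from CD4SP, and the arrays of Id1 and Tcf3 overlap between groups.

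Because Id2 and Id3 were the members higher in both NKT groups, the 250 bases before their annotated start sites were read from RefSeq's GRCm38.p6 table. That table held windows for 4 of the 6 genes: Id2, Id3, Tcf3 and Tcf12. The windows are written 5′ to 3′ on the gene's strand, with the E box, the E protein recognition motif CANNTG, in capitals. Id2 lies at chr12:25096093-25096342 on the minus strand and Id3 at chr4:136143572-136143821 on the plus strand.
Id2: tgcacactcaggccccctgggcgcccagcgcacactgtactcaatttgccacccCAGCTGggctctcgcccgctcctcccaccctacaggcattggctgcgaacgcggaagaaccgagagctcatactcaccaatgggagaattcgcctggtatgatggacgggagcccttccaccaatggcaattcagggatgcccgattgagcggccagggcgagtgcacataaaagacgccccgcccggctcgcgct
Id3: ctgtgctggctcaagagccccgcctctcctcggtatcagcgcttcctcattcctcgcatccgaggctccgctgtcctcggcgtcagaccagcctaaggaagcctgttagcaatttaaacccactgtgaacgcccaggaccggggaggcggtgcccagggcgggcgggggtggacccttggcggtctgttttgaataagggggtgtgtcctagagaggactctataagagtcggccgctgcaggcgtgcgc
The Id2 window held 1 E box, CAGCTG at -196 to -191 from the start, and the Id3 window held 0. Of all 32851 promoter windows of this length 66.2% held at least 1. The GC-rich Smad element GGCGCC, known from bone morphogenetic protein responses of Id genes, was found at -231 to -226 in Id2, in 0 places in Id3 and in 9.59% of all windows. The Egr site GCGTGGGCG was in neither window and in 0.536% of all. Both strands were searched for each motif, and no 2 of these matches overlap. The Tcf3 window held 1 E box, and of 3 Tcf12 windows 2 held 1 each and 1 held 0. These matches describe letters, not sites shown to be bound.

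Id2 encodes the inhibitor that innate lymphoid and effector T cells use to restrain E proteins. Its brightest probe set read 3708 and 3660 in stage 1 NKT, 2479, 2292 and 1900 in Luxoid NKT and 429 and 484 in CD4SP. No array of 1 group overlapped with another group, and stage 1 NKT and CD4SP lay at the 2 ends. Id2 exceeded its CD4SP level 8.09-fold in stage 1 NKT (log2 difference 3.02 ± 0.17 SE, adjusted p = 2.14e-05) and 4.85-fold in Luxoid NKT (2.28 ± 0.15, adjusted p = 3.52e-05). By difference Id2 stood 57th from the top of 10874 genes in the first of these comparisons and 121st in the second.

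Luxoid NKT was 1.67-fold below stage 1 NKT in Id2, a log2 difference of -0.74 ± 0.15 (95% interval -1.09 to -0.38) that missed the threshold with an adjusted p of 0.0647. It passed with the mean of the probe sets (-0.94, adjusted p = 0.00600) and with the filter at the 75th percentile (0.0449). It also passed with an intensity trend in the variance and robust variance estimation used together, named the intensity trend below (0.0323). Over the 18 alternatives the adjusted p ranged from 0.00600 to 0.396, the highest without stage 1 NKT array 2, and the difference from -0.94 to -0.63.

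The other 2 probe sets of Id2 gave the same order of groups. The second read 3049 and 3047 in stage 1 NKT, 1458, 1298 and 1040 in Luxoid NKT and 268 and 307 in CD4SP. Its Luxoid difference was larger, -1.28 ± 0.18, and had an adjusted p of 0.0111 when all probe sets were tested. The dimmest read 342 and 434 in stage 1 NKT, 165, 254 and 256 in Luxoid NKT and 45.5 and 52.5 in CD4SP, below the filter (Luxoid difference -0.81 ± 0.23, adjusted p = 0.195). All 3 thus placed every Luxoid array between the stage 1 NKT and the CD4SP arrays. Probe sets of 1 gene share their RNA and are not replicates.

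Id3 encodes the inhibitor induced through receptor signals at selection. Its single probe set read 2375 and 2234 in stage 1 NKT, 2761, 2358 and 2081 in Luxoid NKT and 1279 and 1305 in CD4SP. Every NKT array was above both CD4SP arrays, and the Luxoid arrays spread around those of stage 1 NKT. Id3 was 1.78-fold higher in stage 1 NKT (0.83 ± 0.17, adjusted p = 0.0125) than in CD4SP, and in Luxoid NKT 1.85-fold (0.88 ± 0.15, adjusted p = 0.00521). The first of these was lost without either stage 1 NKT array (adjusted p = 0.0911 without array 1 and 0.0610 without array 2) or either CD4SP array (0.0713 and 0.0700). Luxoid minus stage 1 NKT was 0.05 ± 0.15, with a 95% interval of -0.30 to 0.40 on the log2 scale.

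Id1, an Id gene best known from endothelium and progenitor cells, read 106 and 156 in stage 1 NKT, 134, 129 and 121 in Luxoid NKT and 129 and 145 in CD4SP. The 2 stage 1 NKT arrays held both the lowest and the highest value, so the groups overlapped in every comparison. Its log2 differences were -0.01 ± 0.18, -0.09 ± 0.20 and -0.10 ± 0.18 for Luxoid minus stage 1 NKT, stage 1 NKT minus CD4SP and Luxoid minus CD4SP. The intervals reached from -0.55 to 0.41 over the 3 comparisons. Id4, which is no member but completes the family, read 43.4 to 50.9 in the 7 arrays by its brightest probe set, below the filter in each of them.

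**Figure D2:**
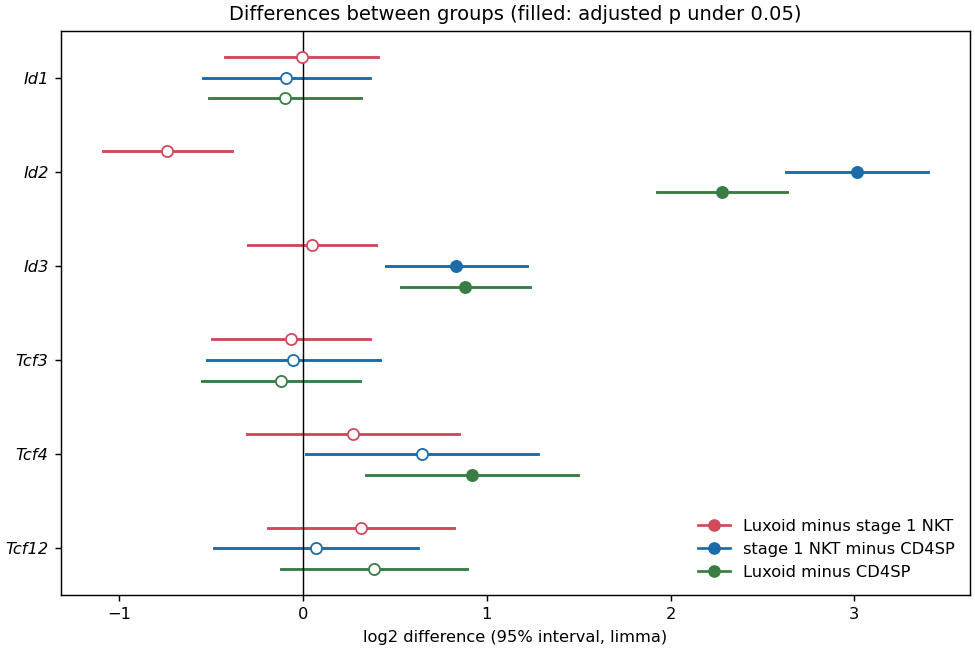
Log2 difference between groups for each of the 6 genes with its 95% interval from limma; filled points have an adjusted p under 0.05. Id2 and Id3 are filled in both comparisons with CD4SP and Tcf4 in Luxoid minus CD4SP, while no gene is filled in Luxoid minus stage 1 NKT, where Id2 lies at -0.74.

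Among the E protein genes, Tcf4 was higher in Luxoid NKT than in CD4SP, and Tcf3 and Tcf12 did not pass in any comparison. Tcf4 encodes E2-2, best known as the defining factor of plasmacytoid dendritic cells. Its brightest probe set read 344 and 264 in stage 1 NKT, 523, 300 and 305 in Luxoid NKT and 201 and 184 in CD4SP. All 5 NKT arrays were above both CD4SP arrays, and Luxoid array 1 stood well above the rest. Luxoid NKT was 1.89-fold higher than CD4SP (0.92 ± 0.25, adjusted p = 0.0396), and this fell to 0.66 without Luxoid array 1 (adjusted p = 0.0452). The call was lost without either stage 1 NKT array (0.0589 and 0.0597), without either CD4SP array (0.141 and 0.214), without the intensity filter (0.0552) and with only the arrays compared (0.0581).

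Stage 1 NKT was 1.57-fold higher than CD4SP in Tcf4 (0.65 ± 0.28, 95% interval 0.02 to 1.28), which did not pass (adjusted p = 0.162, and 0.0470 without Luxoid array 1). Luxoid minus stage 1 NKT was 0.27 ± 0.25 (adjusted p = 0.769) and 0.01 without Luxoid array 1. In each group the array numbered 1, of low Kdm5d, had the highest Tcf4 value. With Kdm5d as a covariate Luxoid minus CD4SP was 0.94 ± 0.17 (adjusted p = 0.00985) and stage 1 NKT minus CD4SP 0.59 ± 0.19 (adjusted p = 0.0718).

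The 6 probe sets of Tcf4 pointed the same way against CD4SP. The second brightest read 330 and 250 in stage 1 NKT, 490, 230 and 277 in Luxoid NKT and 141 and 139 in CD4SP, with every NKT array above CD4SP. Its difference from CD4SP was 1.04 ± 0.33 in stage 1 NKT (adjusted p = 0.0796) and 1.17 ± 0.30 in Luxoid NKT (adjusted p = 0.0346) when all probe sets were tested. The third read 125 to 288 in the NKT arrays and 81.0 and 108 in CD4SP. The remaining 3 did not pass the filter, with averages of 10.3 to 68.0 over the groups. By each of the 6, every NKT array was above both CD4SP arrays. The brightest probe set is of the kind whose probes can also match other transcripts, and the second brightest is not.

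Markers of plasmacytoid dendritic cells, which carry Tcf4, were read beside this result. Their summed intensity over 6 genes was 1498 to 1704 in stage 1 NKT, 1443 to 1608 in Luxoid NKT and 1948 to 1964 in CD4SP. Siglech, a receptor of these cells, averaged 101, 94.1 and 141 in the same order, and 0 of the 5 markers tested were called by limma in either comparison with CD4SP (2 and 1 at an unadjusted p under 0.05). The lectin gene Clec10a was below the filter in all arrays. The B cell markers, whose cells express Tcf3 and Tcf4, summed to 383 to 418, 348 to 464 and 336 to 360 over 5 genes, with Ms4a1 and Ebf1 below the filter in all arrays. Of the 3 tested, Cd79b was higher (at least 2.09-fold and 2.04-fold) and Cd79a lower in stage 1 and Luxoid NKT than in CD4SP, and Pax5 averaged 81.3 to 86.1. The part of either cell type in the Tcf4 result was not tested.

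Tcf3 encodes E12 and E47, the E proteins that set thresholds at the receptor checkpoints. Its brightest probe set read 430 and 591 in stage 1 NKT, 456, 426 and 576 in Luxoid NKT and 527 and 518 in CD4SP. The CD4SP values fell inside the range of both NKT groups. The log2 differences were -0.07 ± 0.19 for Luxoid minus stage 1 NKT, -0.05 ± 0.21 for stage 1 NKT minus CD4SP and -0.12 ± 0.19 for Luxoid minus CD4SP, with 95% intervals of -0.50 to 0.36, -0.52 to 0.42 and -0.55 to 0.31. Its other 2 probe sets averaged 351 and 295 in stage 1 NKT, 371 and 354 in Luxoid NKT and 386 and 363 in CD4SP, and overlapped between all groups. They leaned upwards in Luxoid against stage 1 NKT (0.08 ± 0.22 and 0.26 ± 0.22) where the brightest leaned downwards.

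Tcf12 encodes HEB, the E protein known to be needed for the double-positive thymocytes that give rise to NKT cells. Its brightest probe set read 1343 and 1115 in stage 1 NKT, 1306, 1290 and 2087 in Luxoid NKT and 1163 and 1166 in CD4SP. Luxoid array 3 stood apart, and the other 6 arrays lay between 1115 and 1343. The differences were 0.31 ± 0.22 for Luxoid minus stage 1 NKT (adjusted p = 0.666), 0.07 ± 0.24 for stage 1 NKT minus CD4SP (0.872) and 0.38 ± 0.22 for Luxoid minus CD4SP (0.291). Every Luxoid array was above both CD4SP arrays in this probe set, as in 25.4% of all genes tested.

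The other 4 probe sets of Tcf12 did not share that separation. The second read 437 and 485, 402, 481 and 459, and 433 and 497 in the same order of groups. The third, at 204 to 323 over the 7 arrays, was also highest in Luxoid array 3. In the fourth, stage 1 NKT array 2 was low at 53.9 against 103 to 159 in the other arrays. The fifth read 87.5 and 76.6 in stage 1 NKT, 83.3, 123 and 166 in Luxoid NKT and 108 and 101 in CD4SP. None of the 4 passed in any comparison when all probe sets were tested (adjusted p of 0.482 or more).

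**Figure D3:**
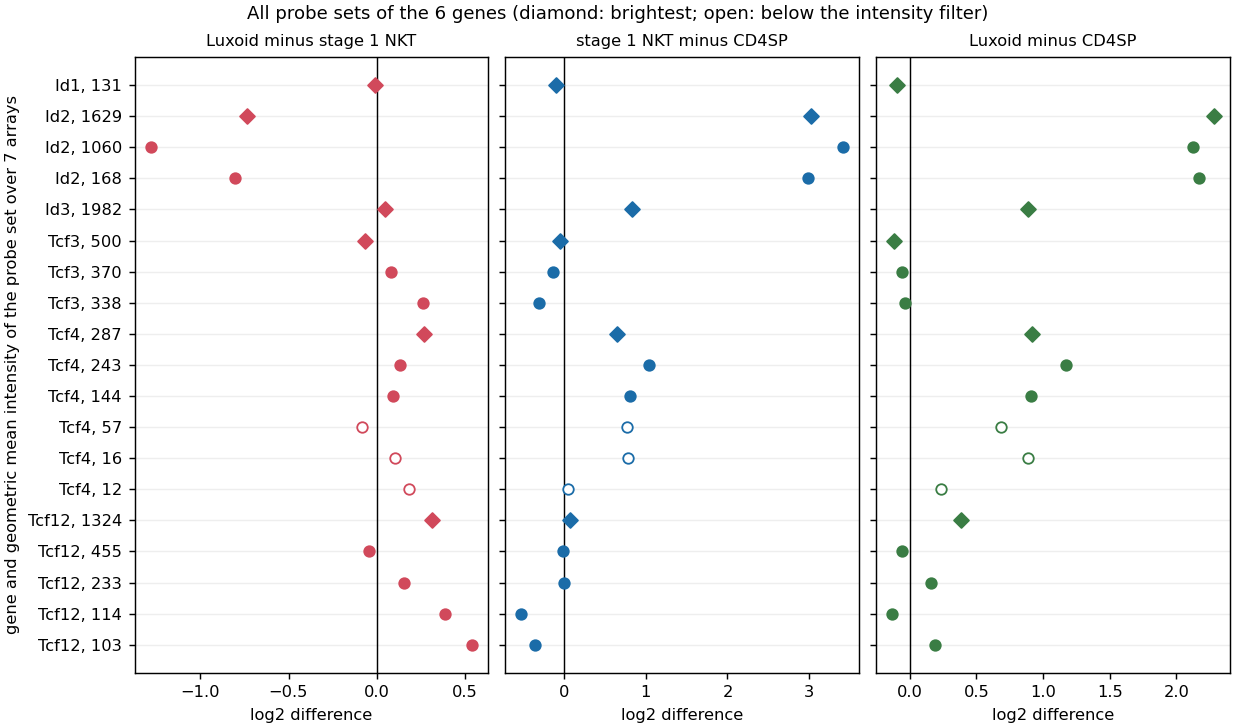
Log2 difference between groups for each of the 19 probe sets, named by gene and geometric mean intensity over the 7 arrays; diamonds are the brightest probe set of a gene and open symbols did not reach the intensity filter. The 3 probe sets of Id2 lie on 1 side in all comparisons and the 6 of Tcf4 lie above 0 in both comparisons with CD4SP, while the 3 of Tcf3 lie between -0.30 and -0.04 there and the 5 of Tcf12 on both sides of 0.

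In stage 1 NKT minus CD4SP the order of the differences was Id2, Id3, Tcf4, Tcf12, Tcf3 and Id1, from 3.02 down to -0.09. In Luxoid minus CD4SP it was Id2, Tcf4, Id3, Tcf12, Id1 and Tcf3, from 2.28 down to -0.12. The intervals of Id2 did not reach those of any other member in either comparison, while those of Id3 and Tcf4 overlapped. Levels of different probe sets are not comparable on an array, so no ratio of Id to E protein transcripts is given.

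The 3 genes whose pattern over the 7 arrays was most like that of Id2 were 9530036M11Rik, Qpct, which encodes glutaminyl cyclase, and Il4, which encodes interleukin 4. The measure was the root mean square difference of log2 values after each gene was centred on its mean, and it was 0.15, 0.20 and 0.21. Id2 was the 1 member whose group means spanned at least 1 on the log2 scale, so no such genes were sought for the others. Qpct read 583 and 575 in stage 1 NKT, 401, 306 and 373 in Luxoid NKT and 59.0 and 61.9 in CD4SP. Il4 read 566 and 489, 275, 222 and 203, and 49.3 and 51.9 in the same order, and 9530036M11Rik read 268 and 283, 197, 193 and 146, and 40.2 and 31.5. All 3 genes were below the filter in both CD4SP arrays, so they entered the test through the NKT arrays. Each had its Luxoid arrays between the other 2 groups, as Id2 had. That order follows from choosing them for likeness to Id2 in these arrays and is no separate result. Of the 3, Il4 passed in Luxoid minus stage 1 NKT (-1.19 ± 0.17, adjusted p = 0.0100, but 0.132 and 0.0819 without stage 1 NKT array 1 and array 2). Qpct missed it (-0.70, adjusted p = 0.0759) and passed in the fit of averaged probe sets (0.0386).

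**Figure D4:**
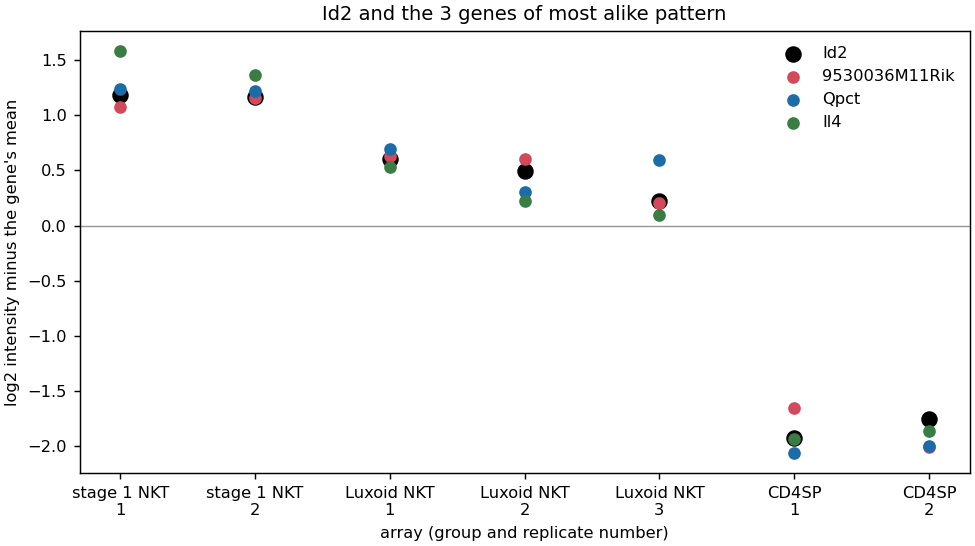
Log2 intensity minus the gene's mean for Id2 (large points), 9530036M11Rik, Qpct and Il4 in each of the 7 arrays, named by group and replicate number. All 4 genes are highest in stage 1 NKT, lower in Luxoid NKT and lowest in CD4SP.

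Other helix-loop-helix genes that pair with E proteins were dim. None of the 9 on the list reached the intensity filter in 2 arrays (Id4, Tal1, Tal2, Lyl1, Ascl2, Msc, Bhlha15, Tcf15 and Tcf21), so none was tested. Lyl1 and Tal1, partners of E proteins in early progenitors and T cell leukaemia, averaged 37.5 to 47.2 and 24.7 to 29.6 over the 3 groups. Ascl2, known from follicular helper T cells, averaged 66.0 to 76.6.

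Of 7 cofactor genes 6 were tested. Cbfa2t3 (ETO2), a corepressor of E proteins, read 294 and 308 in stage 1 NKT, 292, 314 and 414 in Luxoid NKT and 54.7 and 72.8 in CD4SP. Against CD4SP it was at least 3.67-fold higher in stage 1 NKT (2.25 ± 0.21, adjusted p = 0.000259) and at least 4.10-fold in Luxoid NKT (2.41 ± 0.19, adjusted p = 8.70e-05). As both CD4SP arrays were below the filter, it entered the test through the NKT arrays. With the mean of its probe sets these differences shrank to 0.51 (adjusted p = 0.0769) and 0.61 (0.0264). Ldb1, a LIM-domain binding adaptor in E protein complexes, fell 1.47-fold in Luxoid NKT against CD4SP (-0.56 ± 0.15, adjusted p = 0.0404), a call lost under 11 alternatives (0.0503 to 0.215). Kat2b, an acetyltransferase, missed the threshold in both comparisons with CD4SP (-0.56 and -0.55, adjusted p = 0.0866 and 0.0665) and passed under 3 and 4 alternatives. Between the NKT groups 0 of 6 passed, with 0 at an unadjusted p under 0.05. The median over the 6 was -0.13 in both comparisons with CD4SP and 0.09 in Luxoid minus stage 1 NKT.

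All 4 genes of E and Id protein turnover were tested, and 1 passed. Skp2, part of the ubiquitin ligase that degrades E47, read 421 and 403 in stage 1 NKT, 396, 440 and 463 in Luxoid NKT and 241 and 214 in CD4SP. It rose 1.81-fold in stage 1 NKT (0.86 ± 0.15, adjusted p = 0.00684, but 0.0587 without stage 1 NKT array 1 and 0.0589 without CD4SP array 2) and 1.90-fold in Luxoid NKT (0.93 ± 0.14, adjusted p = 0.00240). Usp1, the protease that stabilises Id proteins, averaged 2141, 2381 and 1697 in stage 1 NKT, Luxoid NKT and CD4SP and did not pass (0.34 ± 0.18 and 0.49 ± 0.17 against CD4SP, the second with an adjusted p of 0.0848, and of 0.0428 when its probe sets were averaged). Luxoid array 3 was the highest of its group in Usp1 (2164, 2140 and 2915 in arrays 1 to 3). The Usp1 partner Wdr48 and the ligase gene Stub1 did not pass either. Luxoid minus stage 1 NKT had 0 of 4 past the threshold and 0 at an unadjusted p under 0.05. The medians of the 4 were 0.34, 0.29 and 0.06 for stage 1 NKT minus CD4SP, Luxoid minus CD4SP and Luxoid minus stage 1 NKT.

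Of 11 genes for signals upstream of Id genes 10 were tested. Egr factors link receptor signals to Id3. Egr2 read 2292 and 2819 in stage 1 NKT, 3807, 4634 and 5130 in Luxoid NKT and 2174 and 2266 in CD4SP, so that the Luxoid arrays were highest. Against CD4SP, Egr2 rose 2.02-fold in Luxoid NKT (1.02 ± 0.17, adjusted p = 0.00442) and Egr3 2.35-fold (1.23 ± 0.14, adjusted p = 0.000538). Egr3 also rose 1.58-fold in stage 1 NKT (0.66 ± 0.15, adjusted p = 0.0201), a call lost without any 1 of the 4 arrays compared (0.0769 to 0.126) and when its probe sets were averaged (0.29, adjusted p = 0.164). Egr1 was lower in stage 1 NKT than in CD4SP (-0.53 ± 0.15, adjusted p = 0.0471), and this was lost under 11 alternatives (0.0524 to 0.227). Luxoid minus stage 1 NKT was 0.50, 0.82 and 0.57 for Egr1, Egr2 and Egr3 (adjusted p of 0.157, 0.0617 and 0.108). In each of them every Luxoid array was above stage 1 NKT, as in 10.1% of all genes tested. Egr2 passed under 5 of 18 alternatives (0.0208 to 0.0436: averaged probe sets, 75th percentile filter, intensity trend, Kdm5d covariate and without Luxoid array 1). Id3 differed by 0.05 in that comparison.

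Of the receptor and Smad genes, Bmpr2, a receptor of bone morphogenetic proteins, rose 2.28-fold in Luxoid NKT against CD4SP (1.19 ± 0.28, adjusted p = 0.0208). The call was lost without CD4SP array 1 or array 2 (differences of 1.27 and 1.11). The Luxoid arrays read 294, 270 and 542, so array 3 stood apart. With 1 array left out the lowest difference was 0.88. Smad3 rose 1.42-fold (0.51 ± 0.14, adjusted p = 0.0436), a call lost under 12 alternatives (0.0524 to 0.275). In stage 1 NKT minus CD4SP neither passed (0.95 and 0.46, adjusted p = 0.0722 and 0.0895), but Bmpr2 did under 6 alternatives (0.00321 to 0.0434) and Smad3 under 2 (0.0273 and 0.0419). Tgfbr1, a receptor of TGF-beta, did not pass there either (-0.74 ± 0.22, adjusted p = 0.0619), but did under 5 alternatives (0.0157 to 0.0453), among them the replicate block. Smad1, Smad4, Smad5 and Tgfbr2 did not pass in any comparison or alternative, and Bmpr1a was below the filter. Over the 10 genes, 1 rose and 1 fell in stage 1 NKT against CD4SP (median -0.05) and 4 rose in Luxoid against CD4SP (median 0.06). In Luxoid against stage 1 NKT limma called 0, with a median of 0.39. There 5 of the 10 were at an unadjusted p under 0.05, a threshold for which no share of all genes is given.

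Genes that E proteins are known to bind or activate in thymocytes were read as a further list, of which 13 of 14 were on the array by a single symbol and 9 were tested. In both comparisons with CD4SP 2 rose and 3 fell, with medians of -0.18 in stage 1 NKT and -0.10 in Luxoid NKT. Dntt, the terminal transferase of receptor rearrangement, read 73.7 and 46.4 in stage 1 NKT, 98.0, 51.1 and 120 in Luxoid NKT and 461 and 527 in CD4SP. It was at least 6.01-fold lower in stage 1 NKT, where both arrays were below the filter, and 5.84-fold lower in Luxoid NKT (adjusted p = 0.00121 and 0.00151). Dntt is also a marker on the immature double-positive list below, and the part of such cells in its difference was not tested. Cd4, whose enhancers bind E proteins, was lower by log2 differences of -1.61 ± 0.16 and -1.49 ± 0.14 (adjusted p = 0.000322 and 0.000251). The CD4SP cells were CD4+ by definition and the NKT sort does not name CD4, so this difference cannot be told apart from the sort. Socs3, a feedback inhibitor of cytokine signals, was 3.10-fold and 2.61-fold lower than CD4SP (adjusted p = 0.0155 and 0.0188). The first was lost without either stage 1 NKT array (0.114 and 0.0692) or CD4SP array 2 (0.119), and the second without CD4SP array 1 (0.0537) or array 2 (0.167).

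Ccr9, a chemokine receptor of thymocytes, read 3341 and 3610 in stage 1 NKT, 3772, 3631 and 3213 in Luxoid NKT and 1198 and 869 in CD4SP. It rose 3.40-fold in stage 1 NKT and 3.46-fold in Luxoid NKT (log2 1.77 ± 0.19 and 1.79 ± 0.17, with adjusted p of 0.000477 and 0.000224). Gfi1, a repressor that acts beside E proteins, was 1.83-fold higher in stage 1 NKT (0.87 ± 0.17, adjusted p = 0.0111, but 0.0947 without stage 1 NKT array 1 and 0.0789 without CD4SP array 1) and, in Luxoid NKT, 2.57-fold (1.36 ± 0.16, adjusted p = 0.000632). Between the NKT groups limma called 0 of the 9, with a median of 0.25. No share of all genes is given at an unadjusted p under 0.05, which 2 of the 9 reached. These were Cxcr4, a chemokine receptor (0.57 ± 0.14, adjusted p = 0.131, and 0.0304 with the intensity trend), and Gfi1 (0.49 ± 0.16, adjusted p = 0.253). Rag1, Rag2, Ptcra and Notch3 were below the filter in every array.

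**Figure D5:**
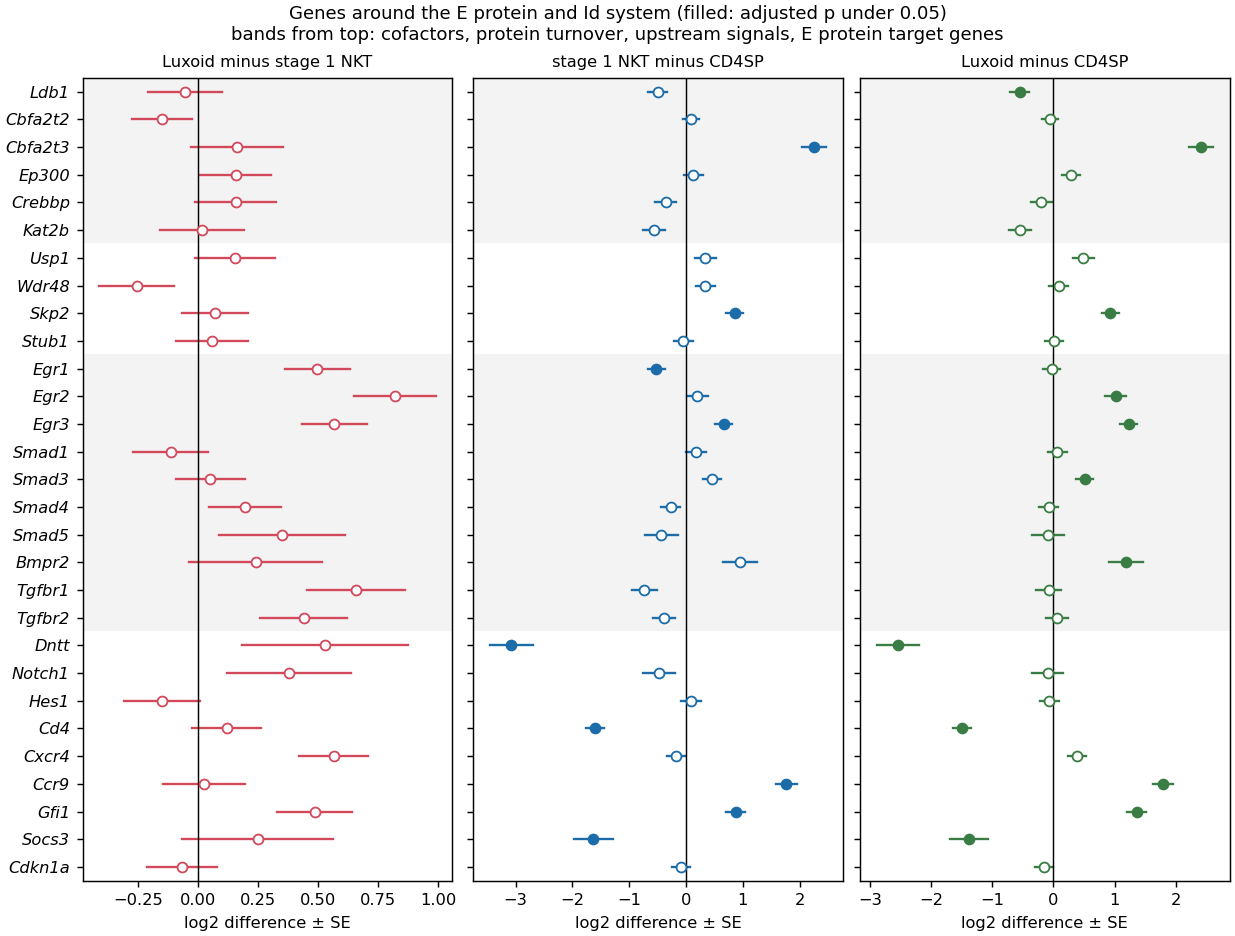
Log2 difference ± SE between groups for the 29 tested genes of the cofactor, turnover, upstream signal and target lists; filled points have an adjusted p under 0.05 and each comparison has its own axis. No gene is filled in Luxoid minus stage 1 NKT, and Cbfa2t3, Skp2, Ccr9, Gfi1, Egr3, Dntt, Cd4 and Socs3 are filled in both comparisons with CD4SP.

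Markers of other cells that the sorts could hold were summed as intensities over each list. The immature double-positive list, whose cells express Tcf12 and Tcf3, summed over 7 genes to 316 to 325 in stage 1 NKT, 418 to 574 in Luxoid NKT and 927 to 1076 in CD4SP. Its defining genes Rag1, Rag2, Ptcra and Arpp21 were below the filter in all arrays. Cd8a was 1.81-fold higher in Luxoid than in stage 1 NKT (adjusted p = 0.0342). The NK and innate lymphoid list, whose cells express Id2, summed over 5 genes to 466 to 577, 1175 to 1321 and 381 to 523 in the same order. Ncr1 and Eomes were below the filter in all arrays. Of the 3 tested, limma called 1 between the NKT groups: Fcer1g rose from 235 in stage 1 to 924 in Luxoid NKT (adjusted p = 0.000554). In each comparison with CD4SP, 2 of the 3 were called higher and 1 lower. Endothelial and stromal genes, whose cells express Id1 and Id3, summed over 8 genes to 931 to 990, 1058 to 1150 and 1112 to 1147, lowest in stage 1 NKT, and Cdh5, Kdr, Tie1, Pdgfra and Foxn1 were below the filter in all arrays. Of the 3 tested, Col1a1 was higher in Luxoid than in stage 1 NKT (at least 1.69-fold, adjusted p = 0.0152). All 6 myeloid genes were below the filter as well. The part of these cells in the members' differences was not tested.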

How the data were processed

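The members, lists and alternatives were chosen with earlier results of these data known. The authors deposited 1 table of probe set intensities on a linear scale, made with RMA and Affymetrix Expression Console per the submitters' processing notes; no versions are named there. RMA equalises the distribution of values between arrays and compresses differences of dim probe sets. Per the labels' protocols, RNA was amplified and labelled with biotin. Log2 was taken of all values.

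Genes were named from GEO's platform annotation: 34945 of 45037 probe sets had 1 symbol, 932 had several and 9160 were not listed. Of the first, 34741 matched RefSeq's GRCm38.p6 table by gene ID, which changed 0 symbols. The probe set of highest mean stood for each of 18193 genes, and genes were tested if at least 2 arrays reached 82.0 (50th percentile over the whole table). With the dimmer group below 82.0 throughout, the brighter mean was divided by 82.0 and the fold is written as at least N-fold.

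All 7 arrays entered 1 limma fit of the 3 group means (version 3.58.1, R 4.3.3, lmFit then eBayes, 4 residual and 4.49 prior degrees of freedom), two-sided, with Benjamini-Hochberg adjustment over the 10874 genes tested, and an adjusted p under 0.05 is called. Errors are standard errors of the fit, and group averages are geometric means. The fit was tested on simulated data. Named genes were all members, members of the fixed lists, and the 3 genes of smallest root mean square difference from a member whose group means span 1 or more. Each result was recomputed under 18 alternatives: another choice of probe sets, filter, normalization, variance model or array weights, the replicate number as a block, Kdm5d as a covariate, only the groups compared, and each array left out. For genes that are no members these were added after the data were seen. No 2 arrays held identical values. The number of arrays limits the precision.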

Additional observations from a re-analysis of the deposited data

How the results depend on the processing

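Of 321 values of single members under the alternatives, 306 kept their direction where called and their side of the threshold, 10 lost and 5 gained a call, and 0 called values reversed. The count of members called in Luxoid minus stage 1 NKT was 0 and became 1 (Id2) with the mean of probe sets, the 75th percentile filter and the intensity trend; without 1 array it was 0 to 0. For stage 1 NKT minus CD4SP the count of 2 ranged from 1 to 3 when an array was left out, and for Luxoid minus CD4SP the count of 3 ranged from 2 to 3. Leaving out an array of a group of 2 leaves 1, which is then assumed to vary like the others.

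Replicate numbers were shared, but each comparison had only 2 same-numbered pairs. Their deviations from the group means correlated at 0.33 to 0.49, and those of unlike-numbered pairs at -0.49 to 0.11. The deviations of 2 arrays from their group mean mirror each other, so these correlations are not separate estimates. The numbers also go with Kdm5d, and the labels name no shared batch. They were not taken as pairs. With the replicate block 0, 3 and 3 members were called for Luxoid minus stage 1 NKT, stage 1 NKT minus CD4SP and Luxoid minus CD4SP; it added Tcf4 (0.65, adjusted p = 0.0445) to the second. Over all genes, 169 calls in Luxoid minus stage 1 NKT became 58 and 49 without stage 1 NKT array 1 and array 2 and 108 without Luxoid array 3. The 1621 calls of stage 1 NKT minus CD4SP became 2616 with the block and 635 to 833 without any 1 of the 4 arrays compared, and 1831 in Luxoid minus CD4SP became 954 and 839 without CD4SP array 1 and array 2. The causes were not tested.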
